A study of Mus musculus with 30 samples.

Results

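Nuclear genes for subunits of respiratory complex I were followed in mouse liver for a year after heavy-ion irradiation. The members were the protein-coding genes whose symbols begin with Ndufa, Ndufb, Ndufc, Ndufs or Ndufv, with the Ndufaf assembly factors left out and a total of at least 300 counts over all libraries. That gave 38 genes of the 51826 gene identifiers in the count table, and all 38 were among the 19685 genes tested. The irradiated arm consisted of C57BL16 males (strain as the labels spell it) exposed to a dose of 0.2 Gy of 56Fe ions, iron nuclei accelerated to 600 MeV/n. The control arm consisted of males of the same strain that were not irradiated, and the labels used here give no age at irradiation. Left liver lobes were collected 30, 60, 120, 270 and 360 days after irradiation, called months 1, 2, 4, 9 and 12, with 3 biological replicates in each of the 10 groups and 30 libraries in all. RNA came from frozen whole-tissue slices after removal of ribosomal RNA. In such bulk tissue, fewer cells of a type and less RNA per cell cannot be told apart.

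Total counts ranged from 7995248 to 14367259 in the 12 libraries of months 1 and 2 and from 13359559 to 20215995 in the 18 later libraries. The annotated RNA Gm26917 took 3.04% to 7.57% of counts in the earlier set and 0.452% to 2.04% in the later set, so depth and composition changed with the time of collection. Over months 1, 2, 4, 9 and 12 its mean share was 6.77%, 5.65%, 0.916%, 0.52% and 0.87% in 56Fe livers, and 4.1%, 4.03%, 0.49%, 0.5% and 1.65% in control livers. The tissue label matched its markers: the summed level of 5 hepatocyte genes (Alb, Apoa1, Ttr, Cyp2e1 and Cps1) was 33257 to 87974 CPM (read counts scaled to a common library size) over all libraries. None of these 5 genes passed the test between the arms at any month.

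Complex I takes electrons from NADH, passes them through a flavin and a chain of iron-sulfur clusters to ubiquinone, and pumps protons across the inner mitochondrial membrane. Its catalytic core is made partly from nuclear genes, which supply the peripheral arm, and partly from genes of the mitochondrial genome, which supply the membrane arm. Accessory subunits encoded in the nucleus surround that core, and liver, rich in mitochondria, uses the complex in the oxidation of fatty acids and amino acids. By role, the members fell into 7 core subunits, 9 accessory subunits of the peripheral arm, 9 of the proximal membrane arm, 10 of the distal membrane arm and Ndufab1, the mitochondrial acyl carrier protein. The other two members, Ndufa4 and its paralogue Ndufa4l2, carry complex I names, but Ndufa4 is now assigned to complex IV.

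Promoter windows were available for 33 of the 38 members from RefSeq on GRCm38.p6, as 35 windows of 250 bases before and 50 bases from the annotated start. Members without a window included Ndufb9, Ndufa2, Ndufa4l2 and Ndufs1. The windows were searched on both strands for core motifs of 4 factors or families known to regulate respiratory chain genes: GCATGCG for NRF1, CCGGAAG for ETS factors such as GABPA, AAGATGG for YY1 and AAGGTCA for estrogen-related receptors (ERR). The ETS word ends in the letters AAG with which the YY1 and ERR words begin, so matches can share bases, but no window of a member held the ETS word together with either. A match describes the letters only. The YY1 word occurred in 7 of the 35 windows (20%), against 6.34% of all 32851 windows. The other words were found in 3 windows for NRF1 (8.6%, against 3.58% of all windows), 4 for ETS (11.4%, against 8.86%) and 3 for ERR (8.6%, against 4.72%). The YY1 word holds ATG, the letters of a start codon, and in all 7 windows the next letters are GC. Coding starts were not looked up, so a promoter word and a coding start cannot be told apart here. The 7 YY1 matches read on the gene's own strand and began 22 to 38 bases after the annotated start. They are shown because they recur at nearly the same place, each as 22 bases 5′ to 3′ with the motif in capitals:
Ndufa3 (chr7:3617385-3617406, plus strand): cgccaagaacAAGATGGccggg
Ndufa9 (chr6:126849104-126849125, minus strand): attgtgggagAAGATGGcggcc
Ndufb8 (chr19:44555393-44555414, minus strand): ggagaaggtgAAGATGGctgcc
Ndufc1 (chr3:51408922-51408943, minus strand): cctgcggaacAAGATGGcgccg
Ndufs4 (chr13:114388048-114388069, minus strand): tgcctacaggAAGATGGcggcg
Ndufs6 (chr13:73328438-73328459, minus strand): ggtcaccggcAAGATGGcggcg
Ndufs7 (chr10:80249463-80249484, plus strand): ggccgaggccAAGATGGcggcg

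The upstream sequences of Ndufb4 and Ndufv2, which gave lower calls at month 2, and of Ndufb2, whose difference had the opposite sign, are shown next from 200 bases before the RefSeq start. Each ends before the outermost start in Gencode as well, so the Ndufb4 stretch stops at position -86. Capitals mark the ERR word, which Ndufb2 holds at position -181. The Ndufb4 match, at -55 from the RefSeq start, is printed as a short window of its own. By Gencode that short window lies inside the gene, downstream of the outermost start. The ERR word stands in the windows of both Ndufb4 and Ndufb2, and binding by any factor was not tested. The printed stretch of Ndufv2 holds none of the 4 words:
Ndufb4 upstream (chr16:37654454-37654568, minus strand): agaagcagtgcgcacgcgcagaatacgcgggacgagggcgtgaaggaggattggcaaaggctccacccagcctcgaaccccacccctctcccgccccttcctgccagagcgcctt
Ndufb4 match (chr16:37654412-37654433, minus strand): cctgagcctgAAGGTCAgactc
Ndufv2 upstream (chr17:66101560-66101759, minus strand): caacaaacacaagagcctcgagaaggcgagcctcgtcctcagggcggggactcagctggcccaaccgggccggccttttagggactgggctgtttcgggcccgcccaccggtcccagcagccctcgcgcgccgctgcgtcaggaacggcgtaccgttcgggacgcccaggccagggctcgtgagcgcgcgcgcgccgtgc
Ndufb2 upstream (chr6:39592365-39592564, plus strand): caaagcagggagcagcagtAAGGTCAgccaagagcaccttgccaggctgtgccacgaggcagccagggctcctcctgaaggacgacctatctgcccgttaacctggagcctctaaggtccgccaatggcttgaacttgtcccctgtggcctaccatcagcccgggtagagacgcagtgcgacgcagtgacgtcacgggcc

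Levels of the members spanned a wide range. Per kilobase of the shortest principal transcript, and averaged over the 30 libraries, Ndufa4 was highest at 436 CPM per kilobase, and Ndufb9, a subunit that binds the acyl carrier protein, at 179, Ndufa6 at 160 and Ndufa7 at 105 were also over 100. At the low end were Ndufb4 at 16.7, Ndufab1 at 13.8 and Ndufb2 at 13.5 CPM per kilobase. Ndufa4l2, a paralogue known to be induced by hypoxia, stood apart at 0.862 CPM per kilobase, with 3 to 25 counts per library and 334 in all, just above the minimum of 300. The next member by total, Ndufb2, had 2495 counts. Core subunits included, from high to low per kilobase, Ndufv1 (91.3), Ndufs8 (67.6), Ndufs7 (62.8), Ndufs3 (62.7), Ndufv2 (50.5) and Ndufs1 (50.4 CPM per kilobase). Ndufb1-ps, annotated as a bidirectional promoter lncRNA, was no member by the rule although it held 16323 counts.

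Some members share sequence with other genes, which bears on counts made from short reads. At least one 50-base window of the shortest principal transcript recurred in transcripts of other genes for 21 members and in none for 17. The shared share of windows was 41.2% in Ndufs5, 39.7% in Ndufs3, 37% in Ndufb4 (with Gm16056, Gm20519 and Ndufb4c), 33.5% in Ndufb2, 31.2% in Ndufab1 and 16.2% in Ndufb5 (with the neighbouring Mrpl47). Exonic bases overlapped another gene in 17 members, with 39.0% of the exonic bases of Ndufb6 (Smim27) and 30.0% of Ndufa13 (Tssk6) as examples. Levels of these genes are uncertain to that extent, and 15 members shared neither bases nor windows.

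Most members followed one course over the year in both arms, low at months 1 and 2, high at months 4 and 9 and lower again at month 12. The summed level in 56Fe livers was 1204 ± 186, 1526 ± 45.8, 2808 ± 155, 3162 ± 620 and 2409 ± 410 CPM over months 1, 2, 4, 9 and 12 (SD, n = 3 each). In control livers it was 1449 ± 323, 1935 ± 172, 3446 ± 249, 3197 ± 84.2 and 2233 ± 203 CPM over the same months. The order of the arms thus differed between months: the mean sum of 56Fe livers was the lower one at months 1, 2, 4 and 9 and the higher one at month 12. At month 12 the sums were 2799, 1982 and 2447 CPM in 56Fe livers, against 2466, 2094 and 2139 CPM in control livers, and without 56Fe replicate 1 the 56Fe mean of 2214 CPM was below the control mean of 2233 CPM. The order at month 9 also turned without 56Fe replicate 2 (3332 against 3197 CPM), 56Fe replicate 3 (3348 against 3197 CPM) or control replicate 3 (3162 against 3151 CPM), whereas at months 1, 2 and 4 it held whichever library was left out. A single library, 56Fe month 9 replicate 1 at 3877 CPM, set the wide spread of its group, and control month 1 replicate 3 was low at 1078 CPM, with the smallest total (7995248 counts) and 6.09% of counts in Gm26917.

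**Figure D1:**
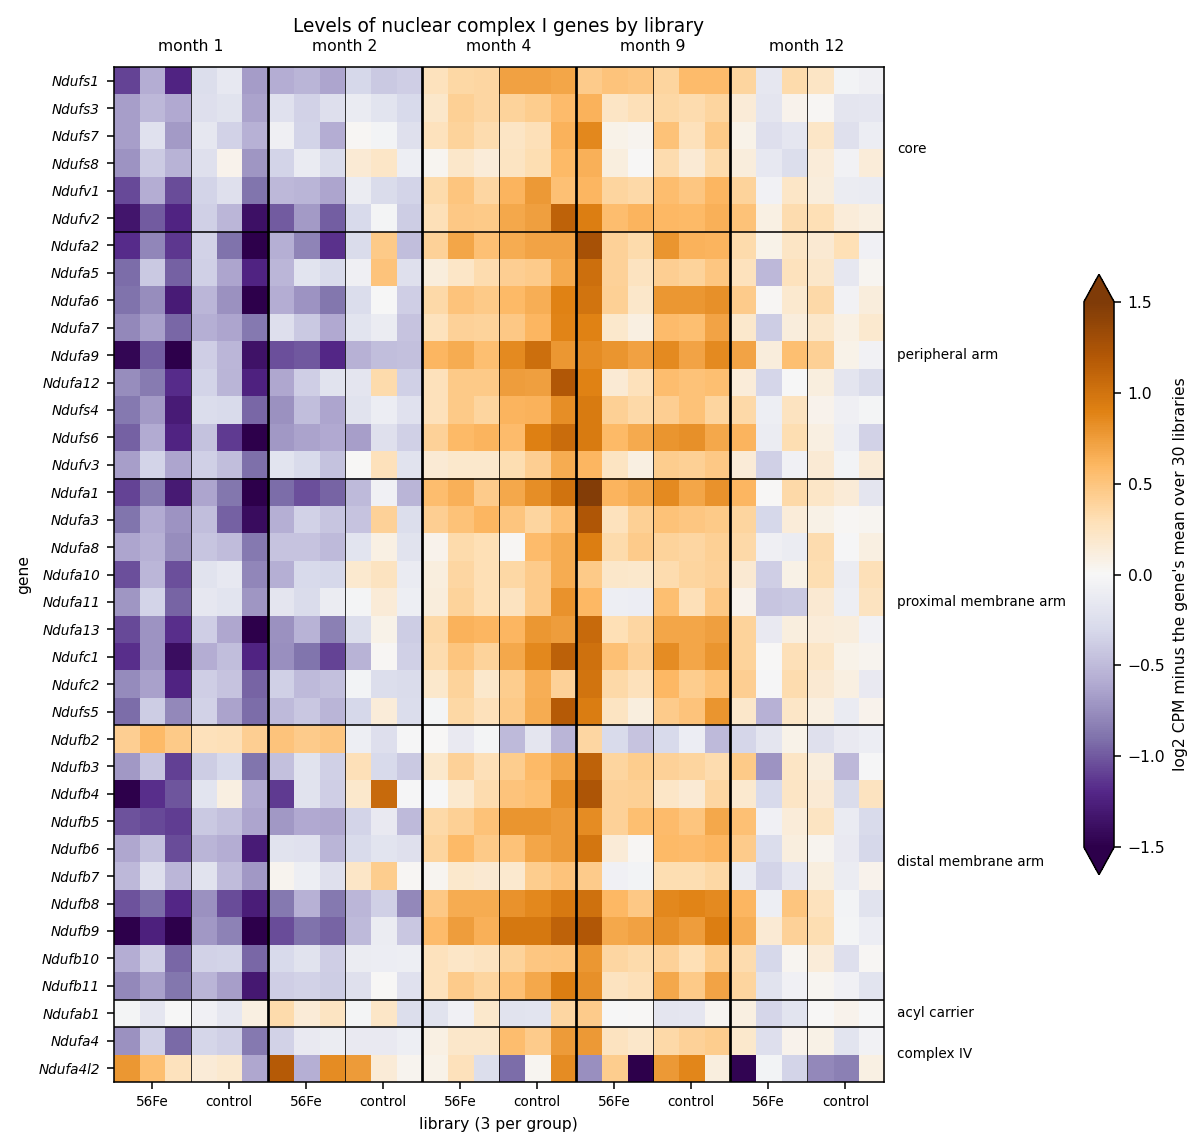
Level of 37 of the 38 members (rows, grouped by role) in each of the 30 libraries (columns, 3 per group, 56Fe left of control within each month), as log2 CPM minus the gene's mean over the 30 libraries. Most rows are purple (below the mean) at months 1 and 2 and orange (above it) at months 4 and 9, and the Ndufb2 row runs the other way, with its highest group mean of 8.36 CPM in 56Fe livers of month 1.

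By group mean, the highest of the 10 groups was control month 4 for 24 members and 56Fe month 9 for 9. The lowest was 56Fe month 1 for 29 members and control month 1 for 6. Between 1 and 15 of the 38 members lay above their own median in a library of months 1 and 2, and 31 to 37 in one of months 4 or 9. Month 12 was the most uneven, with 0 to 34 members above their median in a library.

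Change over the 5 months passed an F-test (edgeR quasi-likelihood, Benjamini-Hochberg adjusted p under 0.05 over all 19685 genes) for 36 members in 56Fe livers, where 59% of all genes passed. In control livers 35 members passed, where 58.3% of all genes passed. The exceptions in both arms were Ndufab1 (adjusted p = 0.168 in 56Fe and 0.938 in control livers) and Ndufa4l2 (0.116 and 0.32), and in control livers also Ndufb4 (0.0814). Among core subunits, Ndufv1, which binds NADH and the flavin, had means of 77.3, 97, 188, 194 and 163 CPM at months 1, 2, 4, 9 and 12 in 56Fe livers. In control livers Ndufv1 had 104, 121, 223, 209 and 139 CPM. Ndufs8, an iron-sulfur subunit, moved over a narrower range, with means of 35.2, 43.6, 56.1, 62.3 and 48.5 CPM in 56Fe livers and 42.9, 55.2, 67.2, 62 and 54.2 CPM in control livers. Ndufb2, a small distal subunit, ran the other way, with its highest mean of 8.36 CPM in 56Fe livers of month 1 and its lowest of 4.52 CPM in control livers of month 4.

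**Figure D2:**
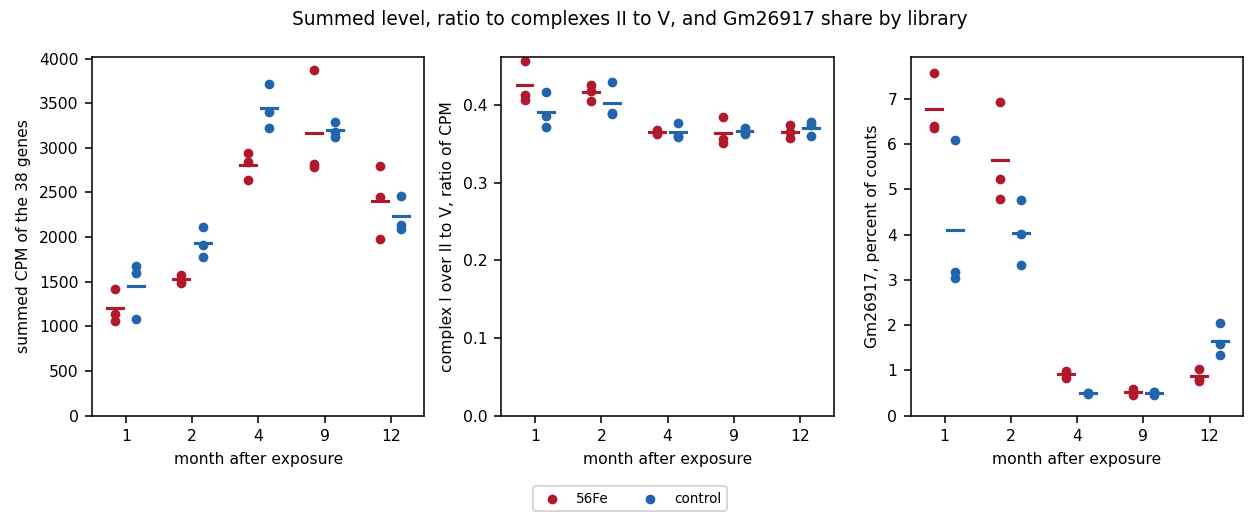
Summed CPM of the 38 members (left), its ratio to the summed CPM of nuclear complex II to V genes (middle) and percent of counts in Gm26917 (right) for each library (points) by month, 56Fe left of control, with bars at group means. The sums of months 1 and 2 lie between 1058 and 2117 CPM and the later ones between 1982 and 3877 CPM, while the Gm26917 share is 3.04% to 7.57% in the earlier and 0.452% to 2.04% in the later libraries.

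The level of Gm26917 ran against these changes. With its log2 level as a covariate, 0 members passed the F-test over months in 56Fe livers and 8 in control livers. Over all genes the covariate left 104 calls of 11623 in 56Fe livers and 2409 of 11486 in control livers. Gm26917 shares did not overlap between the earlier and the later libraries, nor between the arms at months 1, 2, 4 and 12. A fit with this covariate, here or below, therefore cannot tell Gm26917 apart from month or arm. Libraries of months 1 and 2 also differ from the later ones in depth, and which of these quantities the change over months follows was not tested. Relative to the nuclear subunits of complexes II to V, complex I changed far less than in CPM. At month 1 the ratio of the sums was 0.426 ± 0.027 in 56Fe livers and 0.392 ± 0.023 in control livers. At month 2 it was 0.417 ± 0.011 in 56Fe livers and 0.403 ± 0.023 in control livers. At months 4, 9 and 12 the mean ratio was 0.365, 0.364 and 0.366 in 56Fe livers and 0.365, 0.367 and 0.371 in control livers. These sums weigh abundant genes most.

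At month 1, 4 of the 38 members fell in 56Fe livers and none rose. Lower calls made up 3.11% of all genes tested, and calls in either direction 4.6%. Ndufb4, a distal membrane-arm subunit (ENSMUSG00000022820, chromosome 16, 37647170 to 37654453 on GRCm38), had 3.55, 6.57 and 7.32 CPM in 56Fe livers, against 12.9, 15.9 and 9.78 CPM in control livers. All 3 irradiated livers lay below the 3 controls, a 2.21-fold lower level (log2 difference -1.14 ± 0.30 SE, edgeR adjusted p = 0.0305). Ndufb5, also of the distal arm (ENSMUSG00000027673, chromosome 3, 32736990 to 32751566), had 21.5, 21.1 and 20.3 CPM in 56Fe livers, against 33.2, 31.7 and 28.4 CPM in control livers. The groups did not overlap and the spread within each was small (log2 difference -0.57 ± 0.14 SE, edgeR adjusted p = 0.0197).

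Ndufs1, the iron-sulfur core subunit of the NADH-oxidising module (ENSMUSG00000025968, chromosome 1, 63143596 to 63176833), had 57.7, 82.1 and 52.3 CPM in 56Fe livers, against 103, 111 and 77.0 CPM in control livers. The lowest control lay below the highest irradiated liver, and the log2 difference was -0.60 ± 0.15 (SE, edgeR adjusted p = 0.0195). Ndufa9, an accessory subunit at the junction of the arms that binds NADPH (ENSMUSG00000000399, chromosome 6, 126821721 to 126849136), had 21.7, 30.0 and 19.3 CPM in 56Fe livers, against 46.0, 41.4 and 23.2 CPM in control livers. Again it was control replicate 3 that overlapped the irradiated group (log2 difference -0.64 ± 0.18 SE, edgeR adjusted p = 0.04).

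The rest of the core pointed the same way without passing the test: all 7 core subunits had a log2 difference below 0 at month 1. Ndufv1 had -0.43 (adjusted p = 0.111), its iron-sulfur partner Ndufv2 -0.49 (0.125), Ndufs8 -0.28 (0.403), Ndufs3 -0.24 (0.344) and Ndufs7 -0.16 (0.759). Over all members 30 of 38 differences were below 0, where 53.6% of all genes were, and the median was -0.16, against -0.03 over all genes. All 3 irradiated livers lay below the 3 controls in 2 members, Ndufb4 and Ndufb5, where 9.92% of all genes did so. The weakly expressed Ndufa4l2 was the 1 member with all irradiated livers above the controls, where 8.71% of all genes were, at 1.24, 1.05 and 0.867 CPM in 56Fe livers and 0.8, 0.818 and 0.47 CPM in control livers (adjusted p = 0.637).

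The count at month 1 rested on single libraries. Without control replicate 1, control replicate 2, 56Fe replicate 1 or 56Fe replicate 3 it was 0, without 56Fe replicate 2 it was 2, and without control replicate 3 it was 10 with a median of -0.36. Calls over all genes moved with it, at 249 to 341 in the fits with 0 members, 591 without 56Fe replicate 2 and 1874 without control replicate 3, against 906 as reported. The Gm26917 covariate left a count of 0 (122 of all genes) and a median of 0.02. The summed hepatocyte markers were 33257 to 57634 CPM in 56Fe livers and 58638 to 62031 CPM in control livers at this month, and the part of that in the members' differences was not tested. Summed erythroid markers (5 genes, none of them called) were 70.3 to 89.7 CPM in 56Fe livers and 92.9 to 98.9 CPM in control livers. Of 5 cholangiocyte markers 1 rose, with sums of 39.1 to 84.1 CPM in 56Fe livers and 21.3 to 42.4 CPM in control livers, and the part of either list was not tested. All 4 called members share bases or windows with other genes; the 15 members that share neither had 0 calls in edgeR and a median of -0.16.

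**Figure D3:**
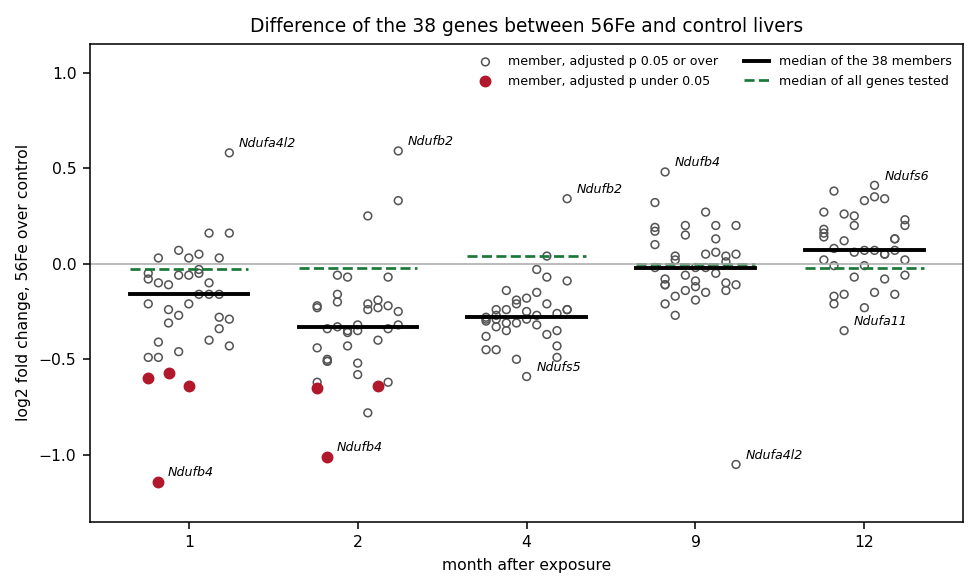
Log2 fold change of 56Fe over control livers for each of the 38 members (points, spread sideways for visibility) by month, with filled points for members called at an adjusted p under 0.05, a solid bar at the median of the members and a dashed bar at the median of all genes tested. The medians of the members are -0.16, -0.33, -0.28, -0.02 and 0.07 at months 1, 2, 4, 9 and 12.

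At month 2, 3 members fell in 56Fe livers, where lower calls made up 1.8% of all genes and calls in either direction 4.37%. Ndufv2 (ENSMUSG00000024099, chromosome 17, 66078638 to 66101559) had 38.8, 47.6 and 38.9 CPM in 56Fe livers, against 62.5, 75.5 and 58.9 CPM in control livers. The groups did not overlap (log2 difference -0.65 ± 0.18 SE, edgeR adjusted p = 0.035). Ndufb9 (ENSMUSG00000022354, chromosome 15, 58933756 to 58939488) had 51.7, 57.4 and 55.0 CPM in 56Fe livers, against 76.1, 98.9 and 80.2 CPM in control livers. Its irradiated livers were also all lower, with a log2 difference of -0.64 ± 0.19 (SE, edgeR adjusted p = 0.0481). Ndufb4 was called for a second time, at 6.80, 12.8 and 11.5 CPM in 56Fe livers against 16.9, 30.9 and 14.6 CPM in control livers. The groups did not overlap, and the level was 2.02-fold lower (log2 difference -1.01 ± 0.29 SE, edgeR adjusted p = 0.045; 0.0537 with the replicate number as a block).

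Ndufb2 (ENSMUSG00000002416, chromosome 6, 39592574 to 39603382) had the largest positive difference, at 8.50, 8.12 and 8.31 CPM in 56Fe livers against 5.60, 5.03 and 5.89 CPM in control livers. All irradiated livers were higher, as in 15.6% of all genes, but the log2 difference of 0.59 ± 0.18 (SE) had an adjusted p of 0.0504 in edgeR and did not pass. Ndufab1 (0.25) and Ndufa4l2 (0.33) were the other members with a positive difference. The remaining 35 were below 0, where 51.8% of all genes were, and the median over members was -0.33, against -0.02 over all genes. In 22 members all 3 irradiated livers lay below the 3 controls, where 18.6% of all genes did so. By role that held in 8 of 9 subunits of the proximal membrane arm, 5 of 7 core subunits, 5 of 10 subunits of the distal arm and 4 of 9 peripheral accessory subunits.

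Among core subunits that did not pass at month 2, Ndufv1 had 100, 98.5 and 92.1 CPM in 56Fe livers and 132, 118 and 113 CPM in control livers. Its groups did not overlap (log2 difference -0.32, edgeR adjusted p = 0.21). Other differences were -0.34 for Ndufs8, -0.23 for Ndufs7, -0.22 for Ndufs1 and -0.06 for Ndufs3. The count of 3 again moved with single libraries: it was 0 without control replicate 1, control replicate 2, 56Fe replicate 1 or 56Fe replicate 3, and 1 without control replicate 3 or 56Fe replicate 2. It was 13 by limma voom with sample weights, 8 by DESeq2 and 13 where only the 6 compared libraries were fitted; the Gm26917 covariate left 0. Over all genes the same fits called 3735, 1427, 3026 and 35, against 860 as reported. Summed erythroid markers were 78.7 to 89.8 CPM in 56Fe livers and 104 to 141 CPM in control livers, with no erythroid marker called. Of 5 lymphocyte markers 1 rose, with sums of 5.12 to 5.97 CPM in 56Fe livers and 1.44 to 3.22 CPM in control livers. Sums of sinusoidal endothelial markers were 314 to 321 CPM in 56Fe livers and 250 to 271 CPM in control livers, and those of cholangiocyte markers 31.4 to 36.6 CPM in 56Fe livers and 39.1 to 51.8 CPM in control livers, with no gene of either list called. The part of these lists was not tested. Among the 15 members without shared bases or windows, 1 (Ndufv2) fell, 10 had all irradiated livers below the controls and the median was -0.34.

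**Figure D4:**
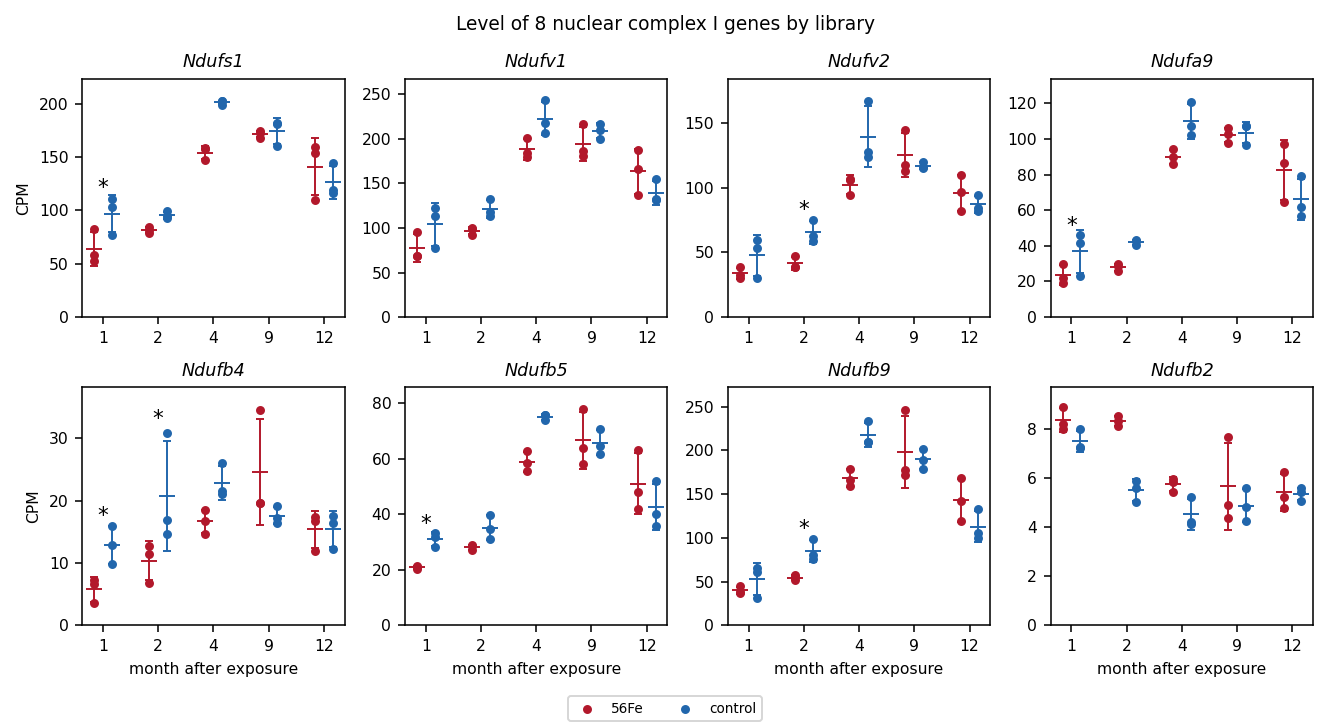
CPM of 8 members in each library (points) by month, 56Fe left of control, with the group mean and a bar of 1 SD (n = 3 each) and a star over months called at an adjusted p under 0.05. Ndufb4 at month 1 runs between 3.55 and 7.32 CPM in 56Fe livers and between 9.78 and 15.9 CPM in control livers, and Ndufb2 at month 2 between 8.12 and 8.50 CPM in 56Fe livers and between 5.03 and 5.89 CPM in control livers.

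At month 4 no member passed in edgeR, where 3.6% of all genes did, although the groups were apart for most members. In 24 of 38 members the 3 irradiated livers lay below the 3 controls, against 15.9% of all genes, and 36 differences were below 0, against 46.2% of all genes. The median was -0.28, against 0.04 over all genes. An unadjusted p under 0.05 was reached by 9 members and by 19.1% of all genes; voom called 4 members and 2016 of all genes, DESeq2 0 and 1265, and edgeR on the 6 libraries alone 8 and 1752, where 708 genes passed as reported.

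The 4 smallest p-values at month 4 belonged to Ndufc1, Ndufs5, Ndufa4 and Ndufv2. Ndufc1, a small membrane subunit, had 28.9, 32.7 and 30.5 CPM in 56Fe livers, against 37.1, 42.0 and 50.6 CPM in control livers (log2 difference -0.49, edgeR adjusted p = 0.119). Ndufs5, on the intermembrane side, had 14, 18.3 and 17.2 CPM in 56Fe livers, against 19.6, 22.5 and 32.3 CPM in control livers (-0.59, edgeR adjusted p = 0.123). In both genes all irradiated livers were lower, and the control group was the wider one. Ndufa4 had 201, 218 and 218 CPM in 56Fe livers, against 278, 258 and 320 CPM in control livers (-0.43, edgeR adjusted p = 0.138). Ndufv2 had 94.1, 107 and 106 CPM in 56Fe livers, against 124, 128 and 167 CPM in control livers (-0.45, edgeR adjusted p = 0.149). These groups did not overlap either.

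Core subunits at month 4 included Ndufs1, whose control livers were close together, with 147, 157 and 158 CPM in 56Fe livers and 202, 202 and 199 CPM in control livers (log2 difference -0.38, edgeR adjusted p = 0.15). Ndufv1 had 179, 201 and 184 CPM in 56Fe livers and 218, 243 and 207 CPM in control livers (-0.24, edgeR adjusted p = 0.394). Both were apart without overlap, while Ndufs3 (-0.14) and Ndufs7 (-0.07) overlapped between the arms. Ndufb2 kept its positive sign, at 5.96, 5.43 and 5.84 CPM in 56Fe livers and 4.2, 5.24 and 4.11 CPM in control livers (0.34, edgeR adjusted p = 0.307). It was the 1 member whose irradiated livers were all higher, where 14.3% of all genes were, and Ndufa3 was near 0 at 0.04. With the Gm26917 covariate the median at month 4 was -0.07. Summed erythroid markers were 197 to 236 CPM in 56Fe livers and 283 to 352 CPM in control livers, which did not overlap. Summed lymphocyte markers were also apart, at 3.82 to 3.98 CPM in 56Fe livers and 1.53 to 3.75 CPM in control livers. No marker of either list was called, and their part was not tested.

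At month 9 the members' differences lay around 0. No member passed in edgeR, where 1.66% of all genes did, and voom and DESeq2 called 0; 1 member had an unadjusted p under 0.05 (16.1% of all genes), and the median was -0.02. The 4 smallest p-values were those of Ndufa4l2 (log2 difference -1.05, edgeR adjusted p = 0.273), Ndufb4 (0.48, 0.416), Ndufab1 (0.27, 0.423) and Ndufa11, a membrane-arm subunit that contacts complex III in supercomplexes (-0.27, 0.492). Ndufb4 had 34.5, 19.6 and 19.7 CPM in 56Fe livers, against 17.2, 16.5 and 19.1 CPM in control livers. It was the only member whose groups did not overlap at month 9, where the 56Fe libraries were above the controls in 9.4% of all genes, and its sign was opposite to that of months 1 and 2. Core differences ran between -0.11 (Ndufv1) and 0.10 (Ndufv2). Replicate 1 was the highest irradiated library for Ndufb4, Ndufab1 and Ndufa11, and without 56Fe replicate 2 the count was 1 instead of 0. Summed erythroid markers were apart at this month as well, at 170 to 190 CPM in 56Fe livers and 203 to 273 CPM in control livers. So were sums of sinusoidal endothelial markers (216 to 291 against 310 to 358 CPM) and of stellate cell markers (286 to 354 against 385 to 455 CPM). No gene of these lists was called, and their part was not tested.

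At month 12 no gene of any kind passed in edgeR (0% of all genes), and among the members voom and DESeq2 also called 0, with 2 at an unadjusted p under 0.05 (13.5% of all genes). The differences leaned to the positive side, with 12 of 38 below 0, where 52.5% of all genes were, and a median of 0.07, against -0.02 over all genes. Ndufs6, a zinc-binding accessory subunit, had 48.1, 28.9 and 38.7 CPM in 56Fe livers, against 33.5, 29.2 and 24.7 CPM in control livers (log2 difference 0.41, edgeR adjusted p = 0.376). Ndufb8 had a difference of 0.35 (edgeR adjusted p = 0.352) and Ndufa11 one of -0.35 (0.393). Replicate 2 of the irradiated group was low for these genes, and all of the named groups overlapped. Without 56Fe replicate 1 the median was -0.08. With the Gm26917 covariate it was -0.17, and the differences of Ndufb8 and Ndufs6 turned to -0.06 and -0.14.

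Averaged over the 5 months, 5 members fell in 56Fe livers, where lower calls made up 2.81% of all genes, and 1 rose, where higher calls made up 2.44% and calls of either direction 5.26%. The lower ones were Ndufa10, an accessory subunit with a kinase-like fold (log2 difference -0.30, edgeR adjusted p = 0.022), Ndufc1 (-0.29, 0.0406), Ndufv2 (-0.27, 0.0422), Ndufa11 (-0.27, 0.0463) and Ndufb4 (-0.43, 0.0497). The higher one was Ndufb2 (0.26, edgeR adjusted p = 0.0487). At month 1 Ndufa10 had 67.8, 97.3 and 67.6 CPM in 56Fe livers and 121, 126 and 80.5 CPM in control livers. At month 2 it had 94.1, 113 and 112 CPM in 56Fe livers and 158, 166 and 128 CPM in control livers. Its groups overlapped at month 1 and did not at month 2. With the replicate number as a block the calls of Ndufb2 (adjusted p = 0.0601) and Ndufb4 (0.0628) were lost.

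Of all members, 35 had a mean difference below 0, where 50.2% of all genes did, and the median was -0.18, against -0.00 over all genes. The core subunits that did not pass had mean differences of -0.21 for Ndufs1 (edgeR adjusted p = 0.0577), -0.21 for Ndufs8, -0.17 for Ndufv1, -0.12 for Ndufs7 and -0.06 for Ndufs3. The count of 6 moved by more than 1.5 times in 22 of the 30 fits that left out a library, with a range of 0 to 19. It stayed within that factor only without control replicate 3 of month 2, 1 of month 4, 2 of month 9, 2 or 3 of month 12, or without 56Fe replicate 2 of month 1, 2 of month 4 or 1 of month 9. The 19 came without control month 1 replicate 3, where 2361 of all genes passed, against 1035 as reported. With the Gm26917 covariate the count was 0, with 108 of all genes passing. Ndufa10 was called in 28 of the 30 fits.

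The 56Fe effect itself differed between months for 4 members in an F-test over the 5 monthly differences, where 11% of all genes passed. Among them were Ndufb5 (edgeR adjusted p = 0.0304), Ndufb4 (0.0315) and Ndufa9 (0.0394). Ndufb5 had log2 differences of -0.57, -0.33, -0.35, 0.02 and 0.26 at months 1, 2, 4, 9 and 12. Ndufb4 went through -1.14, -1.01, -0.45, 0.48 and -0.01, and Ndufa9 through -0.64, -0.58, -0.29, -0.02 and 0.33. These 3 were lowest at month 1 and had at least one positive value at month 9 or 12. With the Gm26917 covariate 0 members passed and 574 of all genes did, against 2161 without it. Leaving out 1 library gave 0 to 9 such members and moved the count by more than 1.5 times in 25 of 30 fits; it stayed within that factor without control replicate 1 of month 2 or of month 12, or without 56Fe replicate 1 or 2 of month 1 or replicate 2 of month 2.

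The change late in the year was compared within each arm as month 12 against month 4, libraries of like depth. In 56Fe livers no member passed in edgeR, voom or DESeq2 (0.0864% of all genes passed in edgeR), and 6 members had an unadjusted p under 0.05 (9.61% of all genes). All 38 differences were below 0, where 47.4% of all genes were, with a median of -0.21, against 0.02 over all genes, and -0.41 without 56Fe month 12 replicate 1. The 4 smallest p-values were those of Ndufa11 (log2 difference -0.52, edgeR adjusted p = 0.316), Ndufs3 (-0.32, 0.358), Ndufs7 (-0.44, 0.422) and Ndufb7 (-0.34, 0.423). The month 12 libraries lay below those of month 4 in 9 members, where 8.97% of all genes did so.

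In control livers 23 of the 38 members fell between these months, where lower calls made up 9.5% of all genes and calls of either direction 22.2%, and none rose. The median was -0.61, against 0.08 over all genes, and in 33 members the 3 libraries of month 12 lay below the 3 of month 4, where 16.7% of all genes did so. By role, 5 of 7 core subunits, 6 of 9 peripheral accessory subunits, 4 of 9 of the proximal and 7 of 10 of the distal membrane arm fell, as did Ndufa4. Ndufb5 had 52.0, 40.3 and 35.9 CPM at month 12 in control livers, against 75.7, 75.9 and 73.9 CPM at month 4 (log2 difference -0.82, edgeR adjusted p = 0.000229). Its control groups were far apart, with the wider spread at month 12.

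Ndufa12, another peripheral accessory subunit, had 25.1 ± 3.59 CPM at month 12 and 50.5 ± 9.68 CPM at month 4 in control livers (SD, n = 3 each), the largest fall among the 12 members with the smallest p (log2 difference -1.01, edgeR adjusted p = 0.00112). Ndufb9 fell by 0.95 on the log2 scale (edgeR adjusted p = 0.000769), Ndufs6 by 0.96 (0.00134), Ndufb8 by 0.85 (0.000613) and Ndufb11 by 0.79 (0.00145). Ndufc1 fell by 0.79 (0.00269), Ndufs4, whose human counterpart is a Leigh disease gene, by 0.71 (0.00268), Ndufv1 by 0.68 (0.00213), Ndufs1 by 0.67 (0.0022) and Ndufs3 by 0.58 (0.00137). Ndufv2 also fell, by 0.68 (0.00633), while Ndufs7 (-0.42, 0.0907) and Ndufs8 (-0.31, 0.169) did not pass. Among the 15 members that share no exonic base and no 50-base window with other genes, 7 fell and the median was -0.48; among the other 23 members, 16 fell and the median was -0.69.

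The Gm26917 share moved alongside, at 1.33% to 2.04% in control livers of month 12 and 0.469% to 0.508% in those of month 4. With its level as a covariate 0 members and 1 of all genes passed, and the median was -0.18. Of the marker lists, 2 of 5 genes each fell in control livers for hepatocytes, sinusoidal endothelium and erythroid cells, and 1 of 5 each rose for Kupffer and stellate cells; the hepatocyte sum was 74067 to 87974 CPM at month 12 and 69209 to 75995 CPM at month 4, and the erythroid sum 137 to 208 CPM at month 12 and 283 to 352 CPM at month 4. The part of these in the members' change was not tested.

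**Figure D5:**
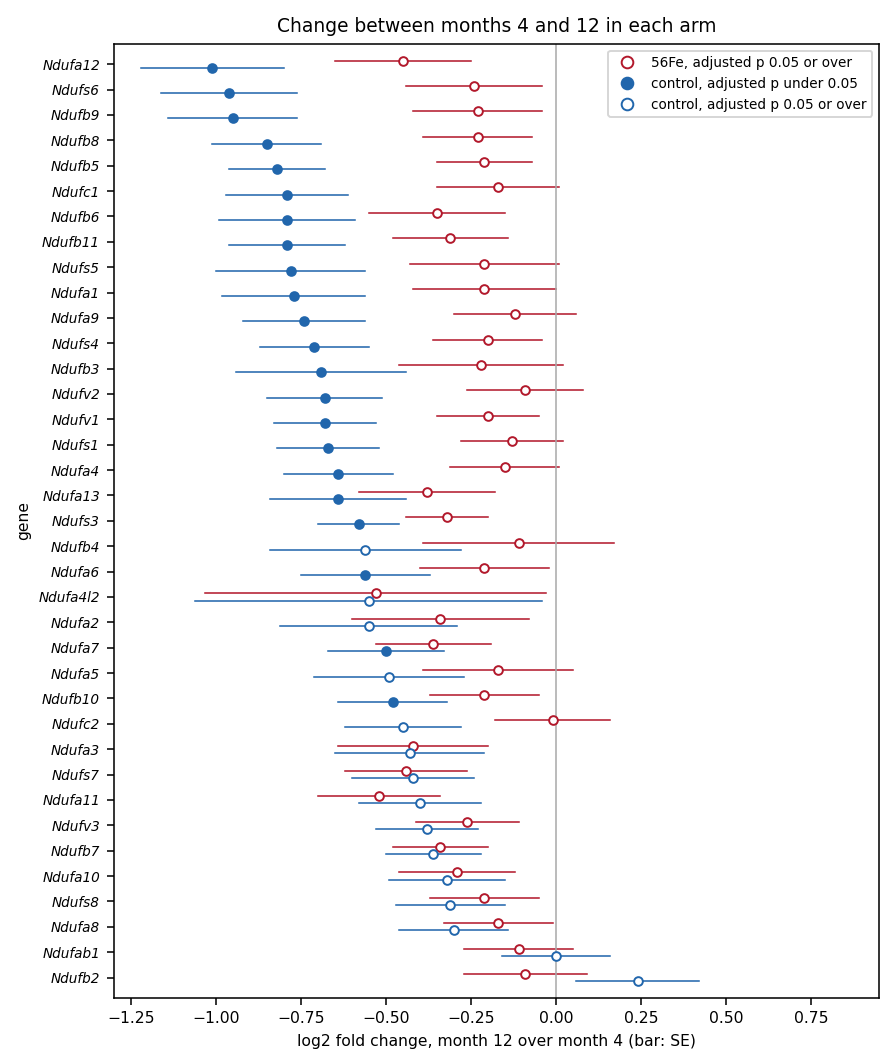
Log2 fold change of month 12 over month 4 (x axis, bar: SE) for 37 of the 38 members (rows, ordered by the control value), 56Fe above control in each row, with filled points for members called at an adjusted p under 0.05. The filled points are all control values, and the medians over the 38 members are -0.21 in 56Fe livers and -0.61 in control livers.

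The difference between the arms in this late change was tested as an interaction, a comparison chosen after these data had been seen. Of the members 1 passed, where higher calls made up 2.15% of all genes and calls of either direction 5.37%. Those that did not pass included Ndufb5 (difference 0.61, edgeR adjusted p = 0.0644), Ndufb9 (0.72, 0.103) and Ndufb8 (0.62, 0.108). The median over members was 0.44, against -0.05 over all genes, and 12 members had an unadjusted p under 0.05 (20.5% of all genes). Of the core subunits, Ndufv2 (0.59), Ndufs1 (0.54) and Ndufv1 (0.47) had larger values than Ndufs3 (0.25), Ndufs8 (0.10) and Ndufs7 (-0.01), none of them called. The count was 0 in 9 of 12 fits that left out a library of months 4 or 12; it was 1 without 56Fe month 12 replicate 3, 2 without control month 12 replicate 1 and 7 without 56Fe month 12 replicate 2. With the Gm26917 covariate it was 0, and the median was -0.12.

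Complex I subunits encoded in mitochondrial DNA had differences above 0 at each month, against medians of the nuclear members below 0 at months 1, 2, 4 and 9 and of 0.07 at month 12. Of 7 such genes 5 were tested, and the 2 others, mt-Nd3 and mt-Nd4l, had at most 2 and 1 counts in any library. At month 1 all 5 rose in 56Fe livers, where 294 of 19685 genes did, with a median log2 difference of 1.24. All genes of the mitochondrial chromosome together took 6.81 ± 2.3% of counts in these 56Fe livers and 7.58 ± 4.83% in control livers (SD, n = 3 each). The groups of mt-Nd5 overlapped, at 5037, 4930 and 2489 CPM in 56Fe livers and 1217, 1456 and 3033 CPM in control livers. Alternative fits were not read out for these 5 genes. mt-Nd4, a proton-pumping core subunit, had 2732, 2667 and 1739 CPM in 56Fe livers, against 650, 777 and 1595 CPM in control livers (log2 difference 1.24 ± 0.30 SE, edgeR adjusted p = 0.0167). mt-Nd6, encoded on the other strand, had 417, 410 and 283 CPM in 56Fe livers, against 115, 103 and 180 CPM in control livers (1.48 ± 0.28 SE, edgeR adjusted p = 0.00317). In both genes the irradiated livers were all higher, and control replicate 3 was again the control closest to them. Whether the counting used strand is not given in the sources used here, so reads of mt-Nd6 and of transcripts from the opposite strand may not be separated.

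At months 2, 4 and 12 none of the 5 mitochondrial genes passed in edgeR, with medians of 0.45, 0.91 and 0.42. At month 9 mt-Nd4 rose, where 228 of 19685 genes did. It had 950, 777 and 1088 CPM in 56Fe livers against 451, 350 and 472 CPM in control livers (1.14, edgeR adjusted p = 0.0484). Averaged over months all 5 rose, where higher calls made up 2.44% of all genes. Their median was 0.76, while the nuclear members had a median of -0.18 in the same comparison.

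Assembly factors, which build the complex and do not remain in it, were tested in 18 of 19 cases. At month 1, 2 of them fell in 56Fe livers, where lower calls made up 3.11% of all genes: Ndufaf4 (15.7 ± 1.63 CPM in 56Fe and 26.3 ± 3.97 CPM in control livers, SD, n = 3 each; log2 difference -0.75, edgeR adjusted p = 0.0108) and Ndufaf1 (-0.62, 0.011). At month 4, 3 fell, where 349 of 19685 genes did: Ndufaf4 (-0.72, 0.0166), Tmem126b (-0.44, 0.0383) and Ndufaf1 (-0.50, 0.0392), of which Tmem126b and Ndufaf1 belong to one membrane-arm assembly complex. None passed at months 2, 9 or 12. In control livers 8 of them fell between months 4 and 12, where lower calls made up 9.5% of all genes. The late change differed between the arms for Tmem126b (0.90, edgeR adjusted p = 0.00408) and Ndufaf1 (0.67, 0.04), where higher calls made up 2.15% of all genes. Alternative fits were not read out for assembly factors. With the Gm26917 covariate the calls of the late difference did not hold, for these or any other genes. Nearly all calls over all genes in the control change were lost with it too.

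The 39 nuclear subunit genes of complexes II to V had a median log2 difference of -0.35 at month 1, against -0.16 for the complex I members. At months 2 and 4 it was -0.38 and -0.32, against -0.33 and -0.28 for complex I, and for month 12 against month 4 in control livers -0.65, against -0.61. At month 1, 3 of them fell, the complex III core proteins Uqcrc1 and Uqcrc2 and the ATP synthase subunit Atp5c1. Lower calls made up 3.11% of all genes at that month. At month 2, 3 fell (Cox4i1, Atp5c1 and Atp5o), where lower calls made up 1.8% of all genes. Atp5l rose (0.82), where 505 of 19685 genes did. None passed at months 4, 9 or 12. In control livers 26 fell and 1 rose between months 4 and 12, where 1871 of 19685 genes fell and 2490 rose. Alternative fits were not read out for these genes, and nearly all calls over all genes in that control change were lost with the Gm26917 covariate.

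Of 10 known regulators of nuclear respiratory genes, Gabpa, the ETS factor whose word was searched in the promoters, fell in 56Fe livers at month 1 (log2 difference -0.55, edgeR adjusted p = 0.00719). Lower calls made up 3.11% of all genes at that month. Esrra, an estrogen-related receptor, fell at month 9 (-0.79, edgeR adjusted p = 0.0117), where 98 of 19685 genes did. Tfam, which packages and transcribes mitochondrial DNA, fell between months 4 and 12 in control livers (-0.72), and its late change differed between the arms (0.73, edgeR adjusted p = 0.0235). Lower calls made up 9.5% of all genes in that control comparison, and higher calls 2.15% in the difference between the arms. In the same control comparison Gabpb1 (0.45) and Pprc1 (1.18) rose, where 2490 of 19685 genes did. Alternative fits were not read out for these regulators, and the call of Tfam in the late difference did not hold with the Gm26917 covariate. Whether any of these regulators bears on the members was not tested.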

How the data were processed

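Values are raw read counts per gene, as the authors deposited them. Per the series text and the submitters' processing notes, paired 50-base reads of libraries depleted of ribosomal RNA were aligned to GRCm38 with STAR 2.5.3a and counted per gene of Gencode M14 by its GeneCounts mode. Which strand column was kept is not given in the sources used here. The series text gives more reads than the totals of these counts, and the totals were used as depth. Symbols came from Gencode M21, which matched 51633 of 51826 identifiers (193 did not match).

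The test was edgeR's quasi-likelihood test (version 4.0.16, R 4.3.3, robust fit) with 1 coefficient for each of the 10 groups and TMM factors. Genes were kept by filterByExpr at a minimum count of 10 and a minimum total of 15, which left 19685. Adjusted p-values are Benjamini-Hochberg values over these, called under 0.05. CPM of the members and of the other respiratory genes are scaled by TMM factors. P-values measure the spread between samples that the labels call biological replicates. Named members are every called one up to the 12 with the smallest p, or the 4 smallest p where fewer than 4 passed, and the 7 core subunits, with up to 4 called genes from each other list. Values of 1 member are not reported here. Further members were added after their values were seen. The members, lists and tests were chosen with earlier results of these data known.

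Alternatives were upper quartile or RLE factors, no filter on low counts, a filter at 1 CPM in at least 3 libraries, the replicate number as a block, the 6 compared libraries alone, limma 3.58.1 voom with sample weights, DESeq2 1.42.0, the Gm26917 level as a covariate, and leaving out each library in turn, where the 2 libraries left are taken to vary like the other groups. Deviations from group means correlated between same-numbered libraries of the arms at month 12 (r = 0.186, 0.346 and 0.186 over genes). Differently numbered controls gave at most -0.0121, -0.146 and 0.233, so the pairing of replicate 3 is uncertain. Numbers were taken to pair at month 12, but the values given for that month come from the fit without the block. No gene passed there without the block, so no call could be lost, and the block added no call of a member. No 2 libraries of a group agreed within sampling noise (30 pairs, lowest chi-square per gene 8.6). Scripts were tested on simulated data. Figures used Python 3.11.15 and matplotlib 3.10.9.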

Additional observations from a re-analysis of the deposited data

Results flagged for a closer look

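The difference between 56Fe and control livers varied between months by its own F-test (edgeR, adjusted over all genes tested) for members that included Ndufb5 (adjusted p = 0.0304), Ndufb4 (0.0315) and Ndufa9 (0.0394). Ndufb5 had log2 differences of -0.57 at month 1 and 0.26 at month 12, Ndufb4 of -1.14 at month 1 and 0.48 at month 9, and Ndufa9 of -0.64 at month 1 and 0.33 at month 12. In all, 4 of the 38 members passed this test (10.5%), near the share of 11% over all genes. Leaving out 1 library left 0 such members in 8 of the 30 fits. With the Gm26917 level as a covariate 0 members passed this test, and 574 of all genes did, against 2161 without it.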

How the results depend on the processing

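Counts of members called moved with the model, as did counts over all genes, given in parentheses. At month 1 the count of 4 (906) became 2 (640) with no filter, 0 (122) with the Gm26917 covariate, 10 (2047) by voom and 1 (487) in the 6 libraries alone. At month 2 the count of 3 (860) became 6 with upper quartile factors (1098) and with the stricter filter (1096), 0 (35) with the covariate, 13 (3735) by voom, 8 (1427) by DESeq2 and 13 (3026) in the 6 libraries alone. At month 4 the 0 (708) became 4 (2016) by voom and 8 (1752) in the 6 libraries alone. For the mean over months the 6 (1035) became 2 with upper quartile factors (1016) and with the stricter filter (1004), 0 (108) with the covariate and 19 (2732) by voom. For the effect between months the 4 (2161) became 0 (574) with the covariate, 9 (4475) by voom and 8 (3792) by DESeq2. With the covariate, change over months went to 0 members (104) from 36 (11623) in 56Fe livers and to 8 (2409) from 35 (11486) in control livers, and month 12 against month 4 in control livers to 0 (1) from 23 (4361). The late difference, 1 member (1058), became 2 (1179) with RLE factors, 0 (658) with no filter, 2 (1428) with the stricter filter, 0 (0) with the covariate, 4 (1913) by voom and 3 (1664) by DESeq2. The causes of these moves were not tested. Gm26917 shares of the arms did not overlap at months 1, 2, 4 and 12, so the covariate cannot be told apart from arm there.

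Leaving out 1 library gave 0 to 10 members at month 1, 0 to 1 at month 2, 0 at month 4, 0 to 1 at month 9, 0 at month 12, 0 to 19 for the mean, 0 to 9 for the effect between months, 35 to 37 and 33 to 36 for change over months in 56Fe and control livers, 0 and 17 to 25 for month 12 against month 4 in 56Fe and control livers, and 0 to 7 for the late difference.

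Of the differences chosen by the naming rule, those of Ndufb8 (-0.06) and Ndufs6 (-0.14) at month 12 and of Ndufb9 (-0.25) and Ndufb8 (-0.11) for the late difference turned sign, all with the covariate. Medians that turned with it were those of month 1 (0.02), month 9 (0.03), month 12 (-0.17) and the late difference (-0.12), and it left -0.07 at month 4 and -0.18 for month 12 against month 4 in control livers. The median of month 12 also turned without 56Fe replicate 1 (-0.08), and that of month 9, near 0, turned under several settings. Of 836 refits of 46 differences chosen by the naming rule, 606 kept sign and call, 203 lost the call, 23 gained it and 4 turned. The 606 include differences that were never called. Of 6 fits that each left out a library, the month 1 calls of Ndufs1 and Ndufa9 held in 2, and those of Ndufb4 and Ndufb5 in 1. At month 2 the calls of Ndufv2 and Ndufb4 held in 1 and that of Ndufb9 in 0. Calls for month 12 against month 4 in control livers, as chosen by the naming rule, held in all 6.

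With the replicate number as a block the counts were 4, 3 and 0 at months 1, 2 and 12, 4 for the mean, 4 for the effect between months and 24 for month 12 against month 4 in control livers. The block ended the calls of Ndufb4 at month 2 and of Ndufb2 and Ndufb4 in the mean. Outside month 12 same-numbered libraries correlated at -0.384 to 0.198, so the numbers are not taken to pair them. Pairing stays uncertain at month 4, where same-numbered libraries gave 0.0987, 0.0753 and 0.114 and differently numbered controls at most -0.0174, -0.0178 and -0.0613. With a block shared over all months, Ndufc1, Ndufs5, Ndufa4 and Ndufv2 stayed uncalled at month 4. A block within the month 4 libraries alone was not fitted, so a paired comparison at that month was not tested. Ndufa4l2, at 3 to 25 counts per library, allows no firm statement.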
